A study of Homo sapiens with 2 samples.

Results

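The genes described here are 37 mitotic genes, chosen by name from a list of regulators, motors and structural proteins of cell division, out of 57905 gene lines in the deposited tables. The rule uses names alone and no threshold on a measured value, but the list was drawn up with earlier results of these data known. Each symbol matched 1 gene line, and 35 of the 37 passed the filter on low counts and were tested. INCENP, the scaffold of the chromosomal passenger complex, and UBE2C, a ubiquitin-conjugating enzyme of the anaphase-promoting complex, did not pass it: the 24 DMSO wells held 0 to 6 counts of INCENP and 0 to 2 counts of UBE2C. K562, a long-established line grown from a chronic myeloid leukaemia, was exposed for 6 h to compounds that mostly target transcription or chromatin. The cells grew in 2 plates of 96 wells with the same layout, 50000 cells in each well, and the RNA of 5000 cells per well was read by MAC-seq, in which every well gets its own barcode and 3′ ends of polyadenylated RNA are sequenced. There were 74 treatments besides DMSO, the vehicle; 68 of them had 2 wells (1 per plate), GSK503 and IBET_762 had 4, and AZ5576, ActD, JQ1 and A485 had 6. Doses were not given, so no comparison between compounds is matched for dose, and the labels call the duplicates technical, so p-values reflect well-to-well spread in 1 experiment, which may be technical.

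All groups are unmodified K562 cells harvested at 6 h; by their labels they differ in the compound and, for some, in plate position. AZ5576 inhibits CDK9, the kinase that releases paused RNA polymerase II, and DRB is an older inhibitor of the same step. ActD, the label for actinomycin D, intercalates into DNA and blocks polymerases. Triptolide acts on the XPB subunit of the initiation factor TFIIH. THZ1, YKL5124 and LDC4297 inhibit CDK7, the kinase of TFIIH, and THZ1 also inhibits CDK12 and CDK13, the targets of THZ531. OTS964 inhibits CDK11. Panobinostat and Quisinostat inhibit histone deacetylases, JQ1 displaces BET bromodomain proteins from chromatin, A485 inhibits the acetyltransferases CBP and p300, and OkadaicAcid inhibits the protein phosphatases PP2A and PP1. A159 and A241 are given by their labels alone. The K562 identity was checked with 15 erythroid and leukaemia markers, all of which were above 0 in the median DMSO well (10.5 to 17070 CPM, the usual depth-scaled read count). Of 5 T cell markers 4 were at 0 in the median DMSO well, with CD3D at 62.3 CPM. Of 5 epithelial markers 4 were above 0, with a highest median of 150 CPM for KRT18, and CDH1 was at 0.

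Entry into mitosis is driven by CDK1 bound to cyclin B, and exit by the anaphase-promoting complex, which marks cyclin B and securin for destruction once the spindle assembly checkpoint is satisfied. The mRNAs of most of these proteins are made late in the cell cycle. Their promoters are known to be held off by the DREAM complex and later driven by B-MYB and FOXM1, through a short element near the start site called the cell cycle genes homology region (CHR), together with CCAAT boxes bound by NF-Y further upstream. K562 cells cycle freely in culture, so a harvest without synchronisation mixes all phases. In bulk wells, fewer cells in late cycle phases and less mRNA per cell cannot be told apart.

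Promoters of the members were read from RefSeq (GRCh38.p14), in a window from 250 bases before to 50 bases after each annotated start. This was done after many members were seen to be lower under several compounds. Whether the members share this mode of transcription was not measured here. Of the 37 members 31 had an entry, with 35 windows. BIRC5, BUB3, TTK, AURKA, TPX2 and UBE2C had none. The letters TTTGAA, the most common form of the CHR, were found on either strand in the windows of 23 of the 31 members (74.2%), and in 25 of the 35 windows. Of all 35116 RefSeq windows of this length 15.2% held them. CCAAT on either strand was present for 26 members (83.9%), against 34.6% of all windows. Both motifs together were present for 20 members (64.5%), against 5.9% of all windows. The CHR variant TTTAAA was present for 13 members (41.9%; 12.2% of all windows), and one or both CHR spellings for 28 (90.3%; 24% of all windows). The core promoter element TATAAA was present for 3 members (9.68%), against 11.5% of all windows. A match starting 60 to 10 bases before the start, a range chosen after the positions were seen, was present for 13 members (41.9%) and in 2.55% of all windows. A match of letters is a description and not a site of binding.

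The 200 bases before the start are printed, 5′ to 3′ on the gene's strand, for 5 members to which the results return, chosen after their motifs were seen, as examples with and without TTTGAA near the start; TTTGAA and CCAAT on either strand (ATTGG on the reverse) are in capitals, and the motifs can share a base.
PLK1, chr16:23678689-23678888, plus strand: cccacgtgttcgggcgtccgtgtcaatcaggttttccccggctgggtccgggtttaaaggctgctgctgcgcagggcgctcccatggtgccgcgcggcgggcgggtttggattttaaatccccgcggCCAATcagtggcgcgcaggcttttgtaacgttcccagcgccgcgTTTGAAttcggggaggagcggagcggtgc
CCNB2, chr15:59104946-59105145, plus strand: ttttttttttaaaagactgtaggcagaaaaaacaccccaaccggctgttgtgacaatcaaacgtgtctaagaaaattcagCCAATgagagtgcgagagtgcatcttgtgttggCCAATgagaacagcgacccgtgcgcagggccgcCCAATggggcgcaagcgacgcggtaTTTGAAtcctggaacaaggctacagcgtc
CENPA, chr2:26785856-26786055, plus strand: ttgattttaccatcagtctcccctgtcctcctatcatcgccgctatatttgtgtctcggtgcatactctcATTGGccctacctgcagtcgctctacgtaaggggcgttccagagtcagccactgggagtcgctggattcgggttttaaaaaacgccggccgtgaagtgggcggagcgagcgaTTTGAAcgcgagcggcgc
HMMR, chr5:163460432-163460631, plus strand: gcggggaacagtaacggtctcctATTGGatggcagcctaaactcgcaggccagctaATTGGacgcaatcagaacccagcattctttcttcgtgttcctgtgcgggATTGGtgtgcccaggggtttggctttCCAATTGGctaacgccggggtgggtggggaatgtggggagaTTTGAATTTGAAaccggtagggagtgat
AURKB, chr17:8210226-8210425, minus strand: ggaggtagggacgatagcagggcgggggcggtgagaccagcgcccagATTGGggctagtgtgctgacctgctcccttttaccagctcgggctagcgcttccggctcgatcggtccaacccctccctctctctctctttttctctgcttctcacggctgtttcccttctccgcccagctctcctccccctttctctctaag

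In PLK1 and CCNB2 the TTTGAA starts 29 bases before the annotated start, and in CENPA 18 bases before it. In HMMR there are 2 in tandem, starting at 28 and 22 bases before the start. The AURKB window, shown for 1 of its 2 annotated starts, holds a CCAAT match on the reverse strand and no TTTGAA. The 22 tested members with TTTGAA had a median log2 change of -0.76 under AZ5576, with 16 lower and 1 higher. The 8 without it had a median of -0.80, with 6 lower and 0 higher. Of all genes 28.1% were lower and 19.2% higher under AZ5576. Under ActD the medians were -0.49 and -0.51, under Panobinostat -0.27 and -0.33, and under THZ531 -0.70 and -0.54. Counts parted more in some treatments, picked here after the values were seen. Under YKL5124 1 of the 22 and 3 of the 8 fell, where 1.7% of all genes fell. Under JQ1 4 of the 22 fell and 4 rose against 0 and 0 of the 8. Of all genes 7.41% fell and 7% rose under JQ1. Under OTS964 0 of the 22 and 2 of the 8 rose, where 8.46% of all genes rose. No test of these differences was made.

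Human counts per well ran from 173553 to 1906446 (median 761912). In DMSO the mean levels of the tested members ran from 8.37 CPM for ECT2 to 225 CPM for PTTG1, on the scale of CPM in TMM-scaled libraries. CPM are not scaled by length, so where a member is called the highest of its group it is the one with the most counts. Their summed level was 2051 to 2781 CPM over the 24 DMSO wells (median 2621). The 8 DMSO wells in the first plate column, as read from the well numbers, were shallow: first-column wells of all treatments had a median of 265248 counts, against 800352 elsewhere. Between these 8 DMSO wells and the other 16, 33 members could be tested with edgeR; 6 were lower and 2 higher in the first column, where 15.5% and 17.3% of 7199 genes were lower and higher. MAD2L1, a checkpoint protein, averaged 106 ± 30.4 CPM (SD, n = 8) in the first column and 161 ± 24.6 CPM (SD, n = 16) elsewhere. CDC20, the activator of the anaphase-promoting complex, averaged 112 ± 19.2 CPM (SD, n = 8) against 151 ± 17.3 CPM (SD, n = 16). AURKB, the kinase of the passenger complex, went the other way, with 215 ± 30.9 CPM (SD, n = 8) against 166 ± 13.8 CPM (SD, n = 16). Every comparison uses all 24 DMSO wells unless stated. Of the described treatments JQ1 and A485 had 4 of 6 wells in the first column, and the others had none.

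**Figure D1:**
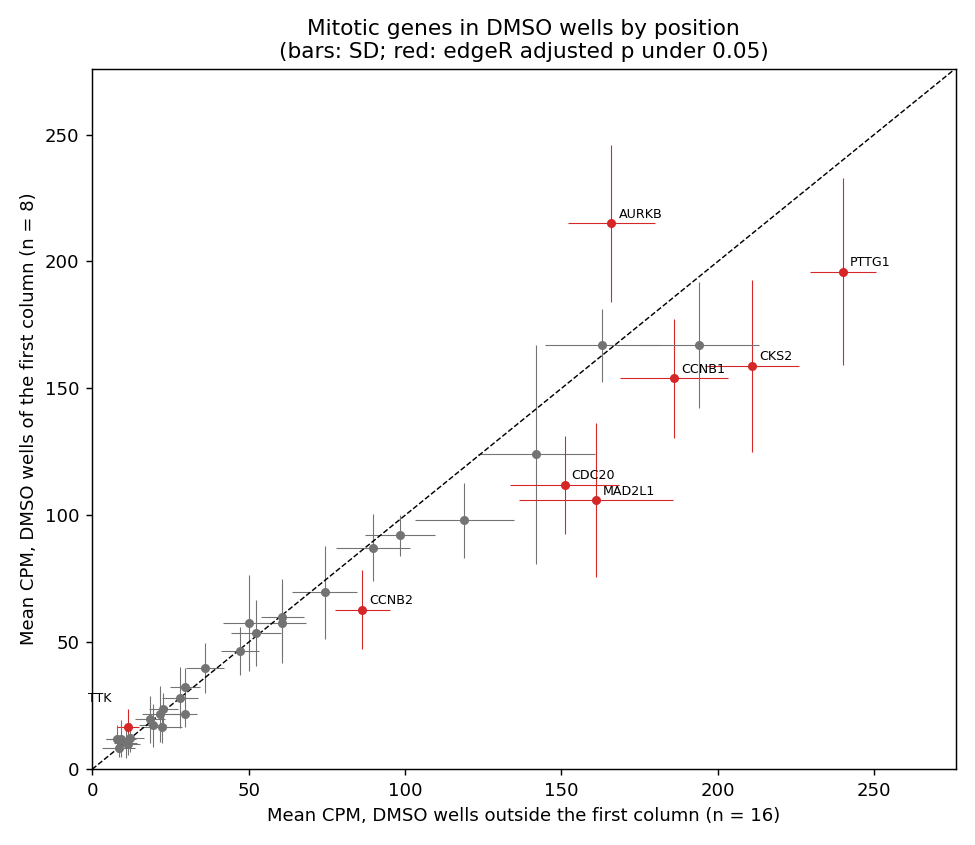
Mean CPM of the 35 tested mitotic genes in the 8 DMSO wells of the first plate column (vertical axis) against the 16 other DMSO wells (horizontal axis), with SD bars and the line of equality. AURKB and TTK lie above the line and CKS2, MAD2L1, CDC20, CCNB1, CCNB2 and PTTG1 below it among the genes with an adjusted p under 0.05 (red).

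Changes are given as log2 of treatment over DMSO from 1 edgeR quasi-likelihood fit of all 192 wells with a plate term, with standard errors (SE) and p-values adjusted by Benjamini-Hochberg over all 10312 genes tested; "fell" and "rose" mean an adjusted p under 0.05. All comparisons share the 24 DMSO wells, so they are not independent of each other. The changes are relative to the other genes. When libraries were scaled instead by the ERCC spike-in RNAs, the median of all genes moved to -0.87 under AZ5576, -1.03 under ActD and between -0.84 and -1.05 under DRB, A159, Triptolide, THZ531, THZ1 and OTS964, and all 35 members were then lower than in DMSO under AZ5576 and under ActD. Relative to the median of all genes, the median member stood at -0.62 under AZ5576 with TMM scaling and at -0.63 with ERCC scaling. Scaling moves all genes of a well alike, so this match was fixed in advance and tells nothing more about the members.

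Under AZ5576 23 of 35 members fell and 2 rose, where 28.1% of all genes fell and 19.2% rose; the median member was at -0.76. ActD gave 16 lower and 3 higher (24.7% and 18.6% of all genes), with a median of -0.48. Under DRB 15 fell and 4 rose (15.7% and 12.8% of all genes), with a median of -0.61. A159 gave 9 lower and 1 higher (11.7% and 9.32% of all genes). Triptolide gave 7 lower and 1 higher (5.95% and 5.36% of all genes). Under THZ531 10 fell and 0 rose (7.96% and 7.27% of all genes), and 0 were higher at an unadjusted p under 0.05 as well as by DESeq2 and limma-voom. DESeq2 and limma-voom each called 6 lower under THZ531, and edgeR without the filter 5. THZ1 gave 7 lower and 1 higher (6.37% and 5.44% of all genes), and OTS964 8 lower and 2 higher (8.61% and 8.46% of all genes). For OTS964 DESeq2 and limma-voom each called 3 lower, and edgeR without the filter or with methylation-enzyme compounds as the reference 2. In each of these 8 treatments the members' share lower by edgeR exceeded that of all genes, for example 65.7% under AZ5576 and 28.6% under THZ531. A159 was included because at least 8 of its members were called, so its excess follows in part from that choice. No test of the list was made.

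The CDK7 inhibitors YKL5124 and LDC4297 changed few genes. Under YKL5124 5 members fell and 0 rose, where 1.7% of all genes fell and 1.14% rose, and under LDC4297 3 fell and 0 rose (0.698% and 0.592% of all genes). No member was higher under these compounds at an unadjusted p under 0.05 or by DESeq2 or limma-voom, and for YKL5124 these tools called 2 and 3 lower in place of 5. The values of 33 of 35 members under YKL5124, and of 31 under LDC4297, were below 0, with medians of -0.36 and -0.32. Panobinostat gave 11 lower and 2 higher (8.18% and 10.3% of all genes), and Quisinostat 8 lower and 1 higher (9.33% and 10.8% of all genes).

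Under OkadaicAcid more members rose than fell: 8 rose and 5 fell, where 14.4% of all genes rose and 15.6% fell, and the summed level was 3012 and 3046 CPM in its 2 wells, above all 24 DMSO wells. JQ1 gave 5 lower and 4 higher (7.41% and 7% of all genes). OkadaicAcid and JQ1 were included because at least 8 members were called, so their counts follow in part from that choice. For 2 treatments chosen after their values were seen, members rose and none fell: 7 rose under A241, where 1.81% of all genes rose and 3.22% fell, and 5 rose under A485, where 1.88% rose and 2.49% fell. At an unadjusted p under 0.05, 0 members were lower under A241 and 1 under A485, and limma-voom called 0 lower under both. Among the other 58 treatments, each with at most 5 members called, the counts are given at the end.

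**Figure D2:**
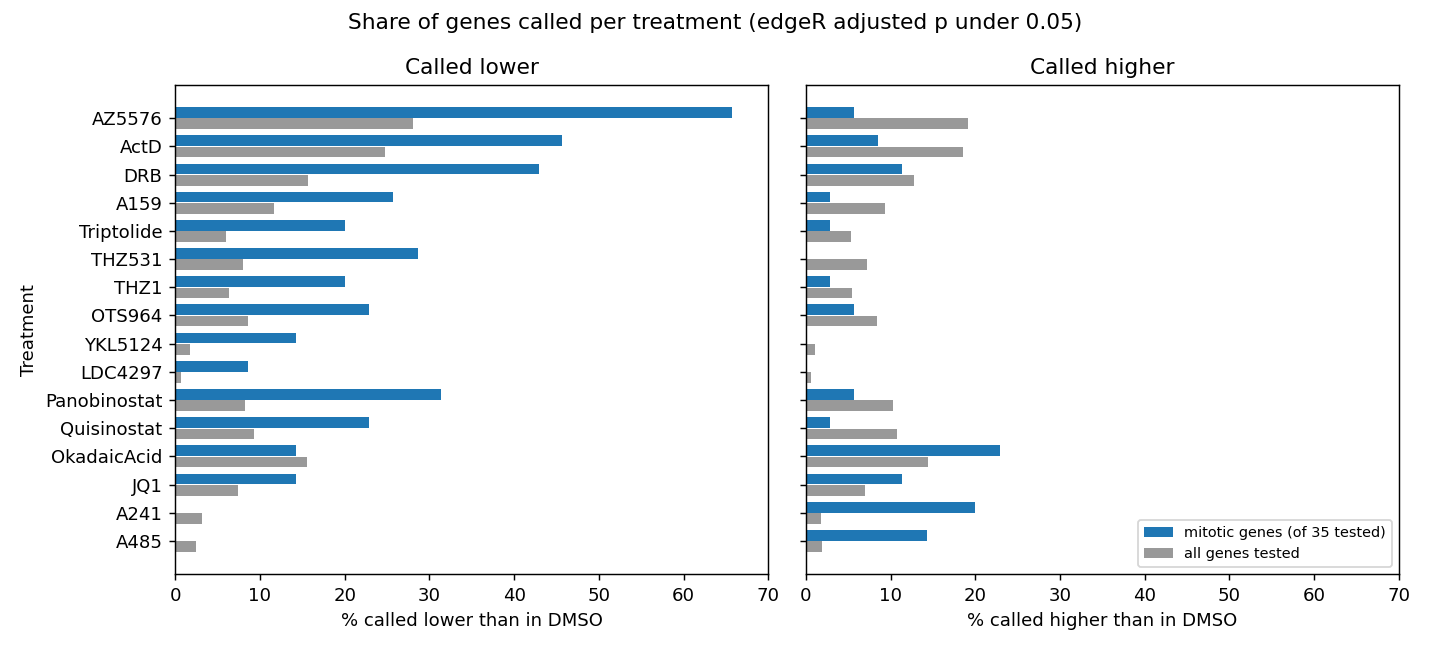
Share of the 35 tested mitotic genes (blue) and of all 10312 tested genes (grey) called lower (left) and higher (right) than in DMSO in 16 treatments, with percent on the horizontal axis. AZ5576 has the longest blue bar among genes lower, 23 of 35 members, and OkadaicAcid among genes higher, 8 of 35.

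The counts depend on having both plates. For treatments of 2 wells a fit of 1 plate leaves 1 well per treatment. The share of all genes called in such fits is not given here. The counts therefore do not show whether members lose calls faster than other genes. With plate 1 alone the numbers lower were 11 (AZ5576), 13 (ActD), 5 (DRB), 4 (A159), 3 (Triptolide), 3 (THZ531), 1 (THZ1), 2 (OTS964), 1 (YKL5124), 0 (LDC4297), 2 (Panobinostat), 3 (Quisinostat) and 2 (JQ1). With plate 2 alone they were 14, 11, 6, 2, 0, 1, 3, 2, 1, 0, 0, 1 and 0 in the same order. The numbers higher were 5 and 6 for OkadaicAcid, 0 and 0 for A241 and 0 and 1 for A485 on plates 1 and 2. Over all 35 members, called or not, the sign was the same on both plates fitted alone for 32 under AZ5576, 30 under ActD, 31 under DRB and 28 under Panobinostat. The lowest numbers were 25 under OTS964, 25 under Quisinostat and 24 under A485.

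**Figure D3:**
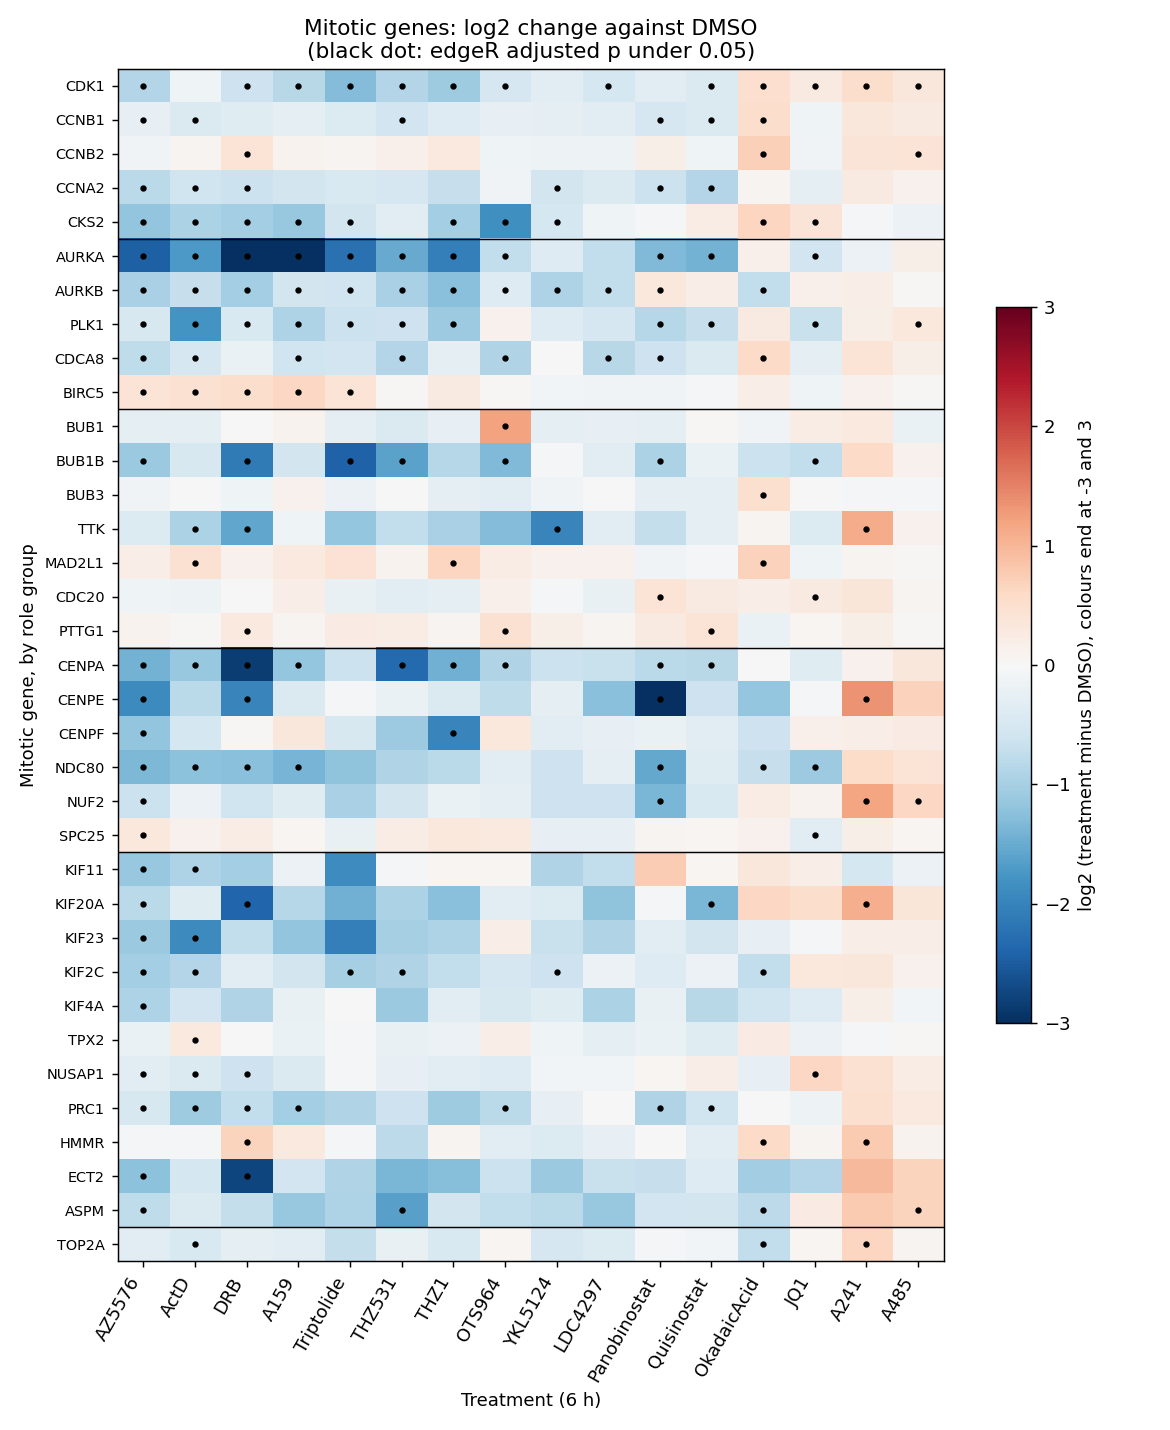
Log2 change against DMSO of the 35 tested mitotic genes (rows, by role group, with lines between groups) in 16 treatments (columns); blue is lower, red higher, colours end at -3 and 3, and a dot marks an adjusted p under 0.05. The AURKA row is blue from AZ5576 to Quisinostat, and BIRC5 is red under AZ5576, ActD, DRB, A159 and Triptolide, a direction that turned under ERCC scaling.

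Among CDK1 and its partners, CDK1 itself, the kinase that drives mitotic entry, fell in 9 of the 14 treatments described by rule and rose in 2. DMSO wells held 59.1 to 181 CPM of CDK1 (median 141). The 6 AZ5576 wells held 67.3 to 79.5 CPM (median 75.7), a change of -0.89 (SE 0.12, adjusted p = 4e-12). These wells lie close together and within the low end of the DMSO range. Under Triptolide the wells held 62.3 and 49.8 CPM, a change of -1.30 (SE 0.24, adjusted p = 1.48e-06). THZ1 wells held 59.3 and 72.5 CPM (-1.06, SE 0.24, adjusted p = 0.000139), and THZ531 wells 81.4 and 68.7 CPM (-0.88, SE 0.22, adjusted p = 0.000845). A159 wells held 78.3 and 76.2 CPM (-0.84, SE 0.19, adjusted p = 0.000113). In each of these 4 treatments at least 1 well lay inside the DMSO range. In the 6 ActD wells CDK1 was at 133, 126 and 139 CPM on plate 1 and 125, 131 and 103 CPM on plate 2, inside the DMSO range (-0.13, SE 0.10, adjusted p = 0.254).

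OTS964 wells held 98.3 and 97.9 CPM of CDK1 (-0.50, SE 0.17, adjusted p = 0.0236), and LDC4297 wells 89.5 and 104 CPM (-0.53, SE 0.15, adjusted p = 0.0364). OkadaicAcid gave the reverse: 199 and 196 CPM, above all DMSO wells (0.51, SE 0.11, adjusted p = 0.000134). JQ1 wells held 139 to 193 CPM (median 155; 0.28, SE 0.09, adjusted p = 0.0221), overlapping DMSO, and this rise turned to -0.04 with ERCC scaling. A241 wells held 209 and 189 CPM, above all DMSO wells (0.52, SE 0.13, adjusted p = 0.00532). A485 wells held 130 to 228 CPM (median 168; 0.35, SE 0.09, adjusted p = 0.00599), overlapping DMSO.

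CKS2, which docks CDK1 to its substrates, was at 99.2 to 238 CPM in DMSO (median 204). AZ5576 wells held 69.5 to 98.7 CPM (median 89.7), all below the lowest DMSO well (-1.18, SE 0.11, adjusted p = 6.83e-21). ActD wells held 78.5 to 133 CPM (median 101), overlapping the low DMSO wells (-0.95, SE 0.10, adjusted p = 1.13e-16). CKS2 was lowest under OTS964, at 56.5 and 53.7 CPM, below all DMSO wells (-1.85, SE 0.21, adjusted p = 8.1e-16). DRB wells held 109 and 83.9 CPM (-1.03, SE 0.17, adjusted p = 5.99e-08). A159 wells held 70.2 and 113 CPM (-1.13, SE 0.18, adjusted p = 1.2e-08), and THZ1 wells 115 and 81.6 CPM (-1.03, SE 0.20, adjusted p = 1.32e-05). In each of these 3 treatments 1 of the 2 wells lay inside the DMSO range. YKL5124 wells held 150 and 127 CPM, within the DMSO range (-0.53, SE 0.12, adjusted p = 0.00238). CKS2 rose under OkadaicAcid, to 314 and 312 CPM, above all DMSO wells (0.65, SE 0.10, adjusted p = 4.55e-08). JQ1 wells held 215 to 289 CPM (median 249), overlapping DMSO (0.38, SE 0.08, adjusted p = 0.000155).

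Over the 14 treatments the median changes of the B-type cyclins were smaller in size, -0.34 for CCNB1 and 0.08 for CCNB2, against -0.51 for CDK1. CCNB1, the main mitotic cyclin, was at 122 to 219 CPM in DMSO (median 179) and fell in 5 of the 14 treatments, by 0.25 to 0.57 on the log2 scale; Quisinostat wells held 140 and 126 CPM (-0.43, SE 0.12, adjusted p = 0.00566). It rose under OkadaicAcid, to 263 and 256 CPM, above all DMSO wells (0.53, SE 0.11, adjusted p = 1.88e-05). CCNB2, the other B-type cyclin and one of those whose promoter is printed, was at 45.2 to 101 CPM in DMSO (median 80.8) and fell in 0 of the 14. It rose under OkadaicAcid, to 128 and 141 CPM (0.71, SE 0.12, adjusted p = 6.88e-07), and under DRB, to 115 and 103 CPM (0.41, SE 0.16, adjusted p = 0.0441); both pairs lie above all DMSO wells, and the DRB value turned to -0.47 with ERCC scaling. CCNA2, the cyclin of S phase and G2, was at 45.2 to 104 CPM in DMSO (median 73.6). It fell in 6 of the 14, with a median change of -0.55 over the 14, and was at -0.80 under AZ5576 and -0.59 under ActD. Quisinostat wells held 41.7 and 38.1 CPM, below all DMSO wells (-0.88, SE 0.19, adjusted p = 3.76e-05). YKL5124 wells held 50.2 and 50.8 CPM, overlapping DMSO (-0.54, SE 0.17, adjusted p = 0.0409).

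Among the kinases, AURKA, which matures centrosomes and builds the spindle, fell in 11 of the 14 treatments and rose in 0. DMSO wells held 31.3 to 59.7 CPM (median 47.5). AZ5576 wells held 0 to 15 CPM (median 7.4; -2.46, SE 0.31, adjusted p = 4.9e-18) and ActD wells 3.96 to 22.2 CPM (median 15.8; -1.73, SE 0.24, adjusted p = 2.06e-13). Both groups lie wholly below DMSO. In A159 the 2 wells held 2 counts of AURKA together, 0 and 4.35 CPM, a ratio to DMSO of 0.0449 with an exact 95% counting interval of 0.00543 to 0.163. In DRB they held 3 counts, 1.82 and 4.66 CPM, a ratio of 0.0659 (interval 0.0136 to 0.193). The adjusted p-values by edgeR were 2.75e-11 and 6.63e-11. These intervals cover counting error only, since reads that copy 1 molecule may be counted more than once.

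AURKA was also below all DMSO wells under Triptolide (7.79 and 11.7 CPM; -2.25, SE 0.56, adjusted p = 2.32e-05), THZ1 (16.5 and 6.04 CPM; -2.06, SE 0.56, adjusted p = 0.000196) and THZ531 (11.2 and 21.8 CPM; -1.51, SE 0.45, adjusted p = 0.00192). The 2 histone deacetylase inhibitors gave 18.1 and 19.2 CPM (Panobinostat; -1.32, SE 0.30, adjusted p = 2.57e-05) and 13.2 and 21.8 CPM (Quisinostat; -1.41, SE 0.27, adjusted p = 7.45e-07), again below all DMSO wells. JQ1 wells held 17.6 to 52.3 CPM (median 36.9), spread across the DMSO range (-0.57, SE 0.18, adjusted p = 0.0113). The values under YKL5124 (33.5 and 38.3 CPM, adjusted p = 0.339) and LDC4297 (28.1 and 27.8 CPM, adjusted p = 0.0965) did not pass the edgeR threshold. OkadaicAcid, with 46.2 and 58.2 CPM, was inside the DMSO range.

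**Figure D4:**
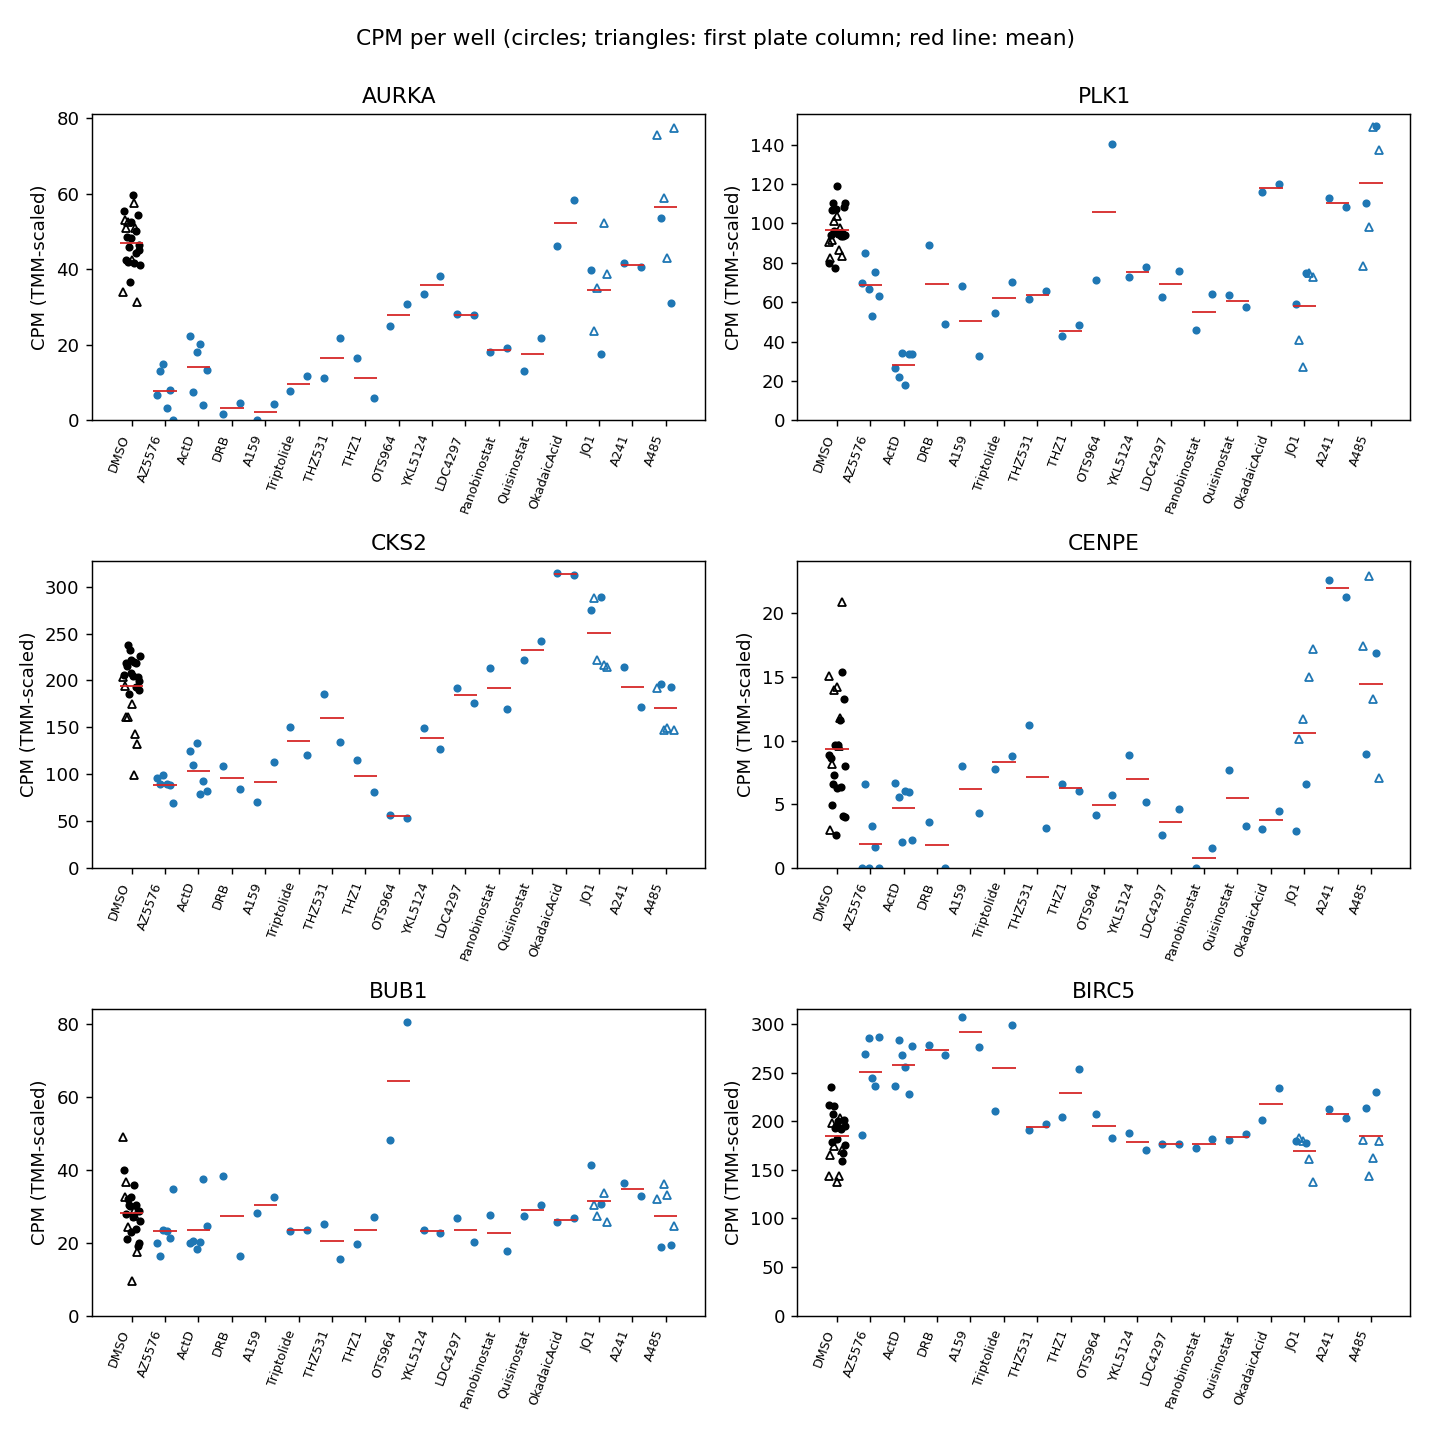
CPM of 6 mitotic genes in each well (vertical axes) of DMSO (black) and 16 treatments (blue), with first-column wells as triangles and the mean as a red line; CENPE was added after its values were seen. AURKA wells under AZ5576 (0 to 15 CPM) and ActD (3.96 to 22.2 CPM) lie below all DMSO wells (31.3 to 59.7 CPM), PLK1 is lowest under ActD, and CKS2 is lowest under OTS964.

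AURKB, which corrects faulty chromosome attachments and whose promoter window held no TTTGAA, fell in 11 of the 14 treatments and rose in 1. DMSO wells held 145 to 279 CPM (median 172). AZ5576 wells held 76 to 103 CPM (median 89.6; -0.97, SE 0.10, adjusted p = 2.51e-17) and ActD wells 91.2 to 131 CPM (median 108; -0.70, SE 0.09, adjusted p = 1.51e-11), both wholly below DMSO. THZ1 wells held 92.3 and 57.4 CPM (-1.25, SE 0.21, adjusted p = 1.4e-07). DRB wells held 81.8 and 93.2 CPM (-1.01, SE 0.17, adjusted p = 4.75e-08), THZ531 wells 78.6 and 99.9 CPM (-0.98, SE 0.19, adjusted p = 7.77e-06) and Triptolide wells 125 and 105 CPM (-0.60, SE 0.17, adjusted p = 0.00466). All of these were below every DMSO well. AURKB had the smallest p among the members under both CDK7 inhibitors. YKL5124 wells held 93.5 and 91.2 CPM (-0.93, SE 0.13, adjusted p = 2.52e-09) and LDC4297 wells 99.8 and 110 CPM (-0.75, SE 0.13, adjusted p = 2.92e-05), below all DMSO wells.

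AURKB also fell under OkadaicAcid, to 117 and 94 CPM, below all DMSO wells (-0.73, SE 0.12, adjusted p = 3.09e-07). It rose under Panobinostat, to 205 and 236 CPM, within the DMSO range (0.32, SE 0.11, adjusted p = 0.0249). AURKB was higher in the first-column DMSO wells, as given above, and no Panobinostat well lies in that column.

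PLK1, the polo-like kinase of mitotic entry, fell in 10 of the 14 treatments and rose in 0. DMSO wells held 77.5 to 119 CPM (median 94.7). ActD wells held 18.1 to 34.3 CPM (median 30.1), wholly below DMSO and below every AZ5576 well (-1.80, SE 0.16, adjusted p = 3.42e-25). AZ5576 wells held 52.9 to 85.2 CPM (median 68), overlapping DMSO (-0.47, SE 0.11, adjusted p = 0.000176). A159 wells held 68.2 and 32.6 CPM (-0.93, SE 0.21, adjusted p = 9.94e-05), and the 2 plates fitted alone gave -0.50 and -1.57. Panobinostat wells held 45.8 and 64.1 CPM (-0.85, SE 0.17, adjusted p = 1.49e-05) and Quisinostat wells 63.6 and 57.6 CPM (-0.69, SE 0.15, adjusted p = 9.79e-05). JQ1 wells held 27.3 to 74.8 CPM (median 65.9; -0.67, SE 0.12, adjusted p = 2.46e-06). All wells of these last 4 treatments were below all DMSO wells. A485 went the other way, with 78.5 to 149 CPM (median 124), overlapping DMSO (0.32, SE 0.09, adjusted p = 0.0298).

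CDCA8, or borealin, which targets the passenger complex to centromeres, was at 41.7 to 91.4 CPM in DMSO (median 59.3) and fell in 7 of the 14 treatments. LDC4297 wells held 34.5 and 32.5 CPM, below all DMSO wells (-0.83, SE 0.21, adjusted p = 0.00958). OTS964 wells held 20.9 and 42.2 CPM (-0.90, SE 0.25, adjusted p = 0.00255); the second lies at the lower edge of DMSO. It rose under OkadaicAcid (0.58, SE 0.13, adjusted p = 0.000331).

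BIRC5, or survivin, the passenger subunit also known as an inhibitor of apoptosis, was the exception in this group: it fell in 0 of the 14 treatments and rose in 5. DMSO wells held 137 to 235 CPM (median 192). AZ5576 wells held 185 to 287 CPM (median 257; 0.42, SE 0.07, adjusted p = 1.09e-07) and ActD wells 228 to 284 CPM (median 262; 0.45, SE 0.07, adjusted p = 1.15e-08), both overlapping the top of the DMSO range. DRB wells held 278 and 268 CPM (0.53, SE 0.11, adjusted p = 4.95e-05) and A159 wells 307 and 276 CPM (0.62, SE 0.11, adjusted p = 1.6e-06), above all DMSO wells. Triptolide wells held 210 and 299 CPM, the lower one inside the DMSO range (0.42, SE 0.12, adjusted p = 0.0131). These rises are relative to the other genes: with ERCC scaling the 5 values were -0.30, -0.45, -0.34, -0.12 and -0.37, below 0 but above the median of all genes.

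Of the 7 tested members of the spindle assembly checkpoint and anaphase-promoting complex, 1 fell and 0 rose under AZ5576 (28.1% and 19.2% of all genes). ActD gave 1 lower and 1 higher (24.7% and 18.6% of all genes). DRB gave 2 lower and 1 higher (15.7% and 12.8% of all genes), and OTS964 1 lower and 2 higher (8.61% and 8.46% of all genes). No test of the group was made. BUB1B, or BUBR1, which binds and restrains CDC20, fell in 7 of the 14 treatments. DMSO wells held 11.8 to 35.4 CPM (median 22.9). Triptolide wells held 0 and 8.78 CPM, 3 counts together, a ratio to DMSO of 0.181 with an exact 95% counting interval of 0.0372 to 0.534 (edgeR adjusted p = 0.00275). OTS964 wells held 14.6 and 3.84 CPM (-1.33, SE 0.50, adjusted p = 0.0181). JQ1 wells held 3.9 to 18.7 CPM (median 14.9), overlapping the low DMSO wells (-0.75, SE 0.26, adjusted p = 0.0213).

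TTK, or MPS1, the kinase at the top of the checkpoint, was at 5.78 to 26.5 CPM in DMSO (median 11.6). YKL5124 wells held 3.94 and 2.07 CPM, 6 counts together, below all DMSO wells (-1.99, SE 0.59, adjusted p = 0.0026). It rose under A241, where the wells held 26.1 and 29 CPM, the first inside the DMSO range (1.12, SE 0.28, adjusted p = 0.0137). BUB1, the kinetochore kinase that recruits the other checkpoint proteins, fell in 0 of the 14 and rose under OTS964: the wells held 48.1 CPM on plate 1 and 80.6 CPM on plate 2, against 9.45 to 49 CPM in DMSO (median 28.4; 1.20, SE 0.19, adjusted p = 2.21e-06). The plate 1 well overlaps the highest DMSO well and the plate 2 well lies above all.

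MAD2L1, the checkpoint protein that inhibits CDC20, was at 66.1 to 198 CPM in DMSO (median 151) and fell in 0 of the 14. ActD wells held 179 to 230 CPM (median 211; 0.46, SE 0.10, adjusted p = 0.000114), THZ1 wells 280 and 193 CPM (0.64, SE 0.18, adjusted p = 0.0132) and OkadaicAcid wells 233 and 255 CPM (0.70, SE 0.14, adjusted p = 1.17e-05). Only the OkadaicAcid wells were all above DMSO among these 3. With ERCC scaling the ActD value turned to -0.43 and the THZ1 value to -0.21. CDC20, the activator of the anaphase-promoting complex, was at 90.8 to 184 CPM in DMSO (median 140); Panobinostat wells held 188 and 197 CPM, above all DMSO wells (0.41, SE 0.11, adjusted p = 0.00456). JQ1 wells held 125 to 209 CPM (median 169), overlapping DMSO (0.26, SE 0.09, adjusted p = 0.0239), a value that turned to -0.07 with ERCC scaling.

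PTTG1, or securin, the inhibitor of separase, was the member with the highest mean level of this group, at 144 to 259 CPM in DMSO (median 235). It rose under OTS964, to 326 and 303 CPM (0.45, SE 0.11, adjusted p = 0.00123), Quisinostat, to 336 and 281 CPM (0.41, SE 0.10, adjusted p = 0.000307), and DRB, to 269 and 301 CPM (0.30, SE 0.11, adjusted p = 0.0364). All 6 wells lie above DMSO. The OTS964 value turned to -0.29 with ERCC scaling, and the DRB value to -0.57 with ERCC scaling and to -0.02 with library size alone. BUB3, which carries BUB1 and BUB1B to the kinetochore, was at 128 to 200 CPM in DMSO and passed the threshold under OkadaicAcid alone of the 14, with 239 and 215 CPM, above all DMSO wells (0.47, SE 0.10, adjusted p = 4.77e-05).

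Of the 6 centromere and kinetochore members 5 fell under AZ5576 and 1 rose, with a median of -1.26, and 4 fell under Panobinostat, with a median of -1.09. Of all genes 28.1% fell and 19.2% rose under AZ5576 and 8.18% fell under Panobinostat. The 5 that fell under AZ5576 averaged 9.32 to 30.6 CPM in DMSO, and SPC25, which rose, 112 CPM. Changes under AZ5576 also went with the level in DMSO, as given at the end, so role and level cannot be told apart. CENPA, the histone variant that marks the centromere, fell in 9 of the 14 treatments. DMSO wells held 19.3 to 45.2 CPM (median 30.4). AZ5576 wells held 6.51 to 13.1 CPM (median 11.4), wholly below DMSO (-1.41, SE 0.25, adjusted p = 1.02e-08). DRB wells held 7.28 and 0 CPM, 4 counts together (-2.84, SE 0.67, adjusted p = 2.32e-07), and THZ531 wells 11.2 and 0 CPM, also 4 counts (-2.33, SE 0.67, adjusted p = 0.00039). With a well at 0, these fitted changes depend on the prior count.

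NDC80, the outer kinetochore protein that grips microtubules, was at 6.95 to 38.8 CPM in DMSO (median 21.2) and fell in 7 of the 14 treatments. Panobinostat wells held 9.64 and 4.81 CPM (-1.54, SE 0.43, adjusted p = 0.000586), and JQ1 wells 3.9 to 16.5 CPM (median 7.06; -1.08, SE 0.28, adjusted p = 0.000627). Both groups overlap the low DMSO wells. NUF2, its partner in the same complex, was at 6.95 to 34.6 CPM in DMSO (median 20.8); Panobinostat wells held 8.43 and 8.02 CPM, overlapping DMSO (-1.37, SE 0.40, adjusted p = 0.0016). It rose under A241, to 55.6 and 42.5 CPM, above all DMSO wells (1.18, SE 0.21, adjusted p = 7.19e-05), and under A485, where wells held 21.1 to 46.4 CPM (median 31.9; 0.61, SE 0.16, adjusted p = 0.017).

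SPC25, another member of the same kinetochore complex, was at 76.8 to 153 CPM in DMSO (median 109). AZ5576 wells held 114 to 163 CPM (median 147), overlapping DMSO (0.31, SE 0.10, adjusted p = 0.00438); this value turned to -0.01 with library size alone and to -0.42 with ERCC scaling. CENPE, a kinetochore motor that moves chromosomes to the spindle equator, is named here after its values were seen. It had 2.56 to 20.9 CPM in DMSO (median 8.76). Panobinostat wells held 0 and 1.6 CPM, 1 count in all, a ratio to DMSO of 0.0805 with an exact 95% counting interval of 0.00202 to 0.456 (edgeR adjusted p = 0.00182). A241 wells held 22.6 and 21.2 CPM, above all DMSO wells (1.34, SE 0.35, adjusted p = 0.0178).

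Of the 11 spindle, motor and cytokinesis members 9 fell under AZ5576 and 0 rose, and 5 fell under ActD and 1 rose, where 28.1% and 19.2% of all genes fell and rose under AZ5576 and 24.7% and 18.6% under ActD. KIF2C, a kinesin that takes microtubules apart at centromeres, was at 26.5 to 67.8 CPM in DMSO (median 52.8) and fell in 6 of the 14 treatments; OkadaicAcid wells held 33.9 and 28 CPM, overlapping DMSO (-0.75, SE 0.21, adjusted p = 0.0014). PRC1, the bundler of the central spindle, fell in 7 of the 14, by 0.49 to 1.06 on the log2 scale. TPX2, which activates AURKA on the spindle, fell in 0 of the 14. DMSO wells held 47.3 to 94.2 CPM of TPX2 (median 57.5), and ActD wells 62.3 to 96.6 CPM (median 73.9), overlapping DMSO (0.30, SE 0.11, adjusted p = 0.0171), a value that turned to -0.63 with ERCC scaling.

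NUSAP1, a microtubule-bundling protein and the member of this group with the highest mean level, was at 66.1 to 107 CPM in DMSO (median 89.8). It rose under JQ1, where wells held 122 to 163 CPM (median 143), above all DMSO wells (0.63, SE 0.10, adjusted p = 3.03e-07). It fell under AZ5576, ActD and DRB, by 0.31, 0.44 and 0.62 on the log2 scale. HMMR, a spindle-pole protein whose promoter holds the tandem TTTGAA, was at 13.9 to 37.6 CPM in DMSO (median 27.3). It rose under DRB, to 49.1 and 39.6 CPM, above all DMSO wells (0.67, SE 0.22, adjusted p = 0.0242), a value that turned to -0.21 with ERCC scaling. It also rose under A241, to 50.4 and 46.4 CPM, above all DMSO wells (0.78, SE 0.20, adjusted p = 0.0171). ASPM, a spindle-pole organiser, was at 6.4 to 37.7 CPM in DMSO (median 18.3); OkadaicAcid wells held 11.3 and 10.1 CPM (-0.78, SE 0.34, adjusted p = 0.0461), and A485 wells 22.9 to 35 CPM (median 28.5; 0.67, SE 0.18, adjusted p = 0.0191), both overlapping DMSO.

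The motors KIF11, KIF20A, KIF23 and KIF4A and the cytokinesis factor ECT2 averaged 8.37 to 12.2 CPM in DMSO, with 1 to 16 counts per well, and few were called in treatments of 2 wells, among them KIF20A and ECT2 under DRB. The 14 members under 30 CPM in DMSO had a median SE of 0.65 under THZ531, against 0.18 for the 10 members at 100 CPM or more. The 4 motors and ECT2 all fell under AZ5576, by 0.80 to 1.23 on the log2 scale. TOP2A, the topoisomerase that disentangles sister chromatids, was at 29.5 to 90.4 CPM in DMSO (median 50.1). ActD wells held 30.3 to 48.3 CPM (median 35.5; -0.46, SE 0.17, adjusted p = 0.0159) and OkadaicAcid wells 32.9 and 29.1 CPM (-0.74, SE 0.23, adjusted p = 0.00536), overlapping DMSO, and A241 wells 69.5 and 94.6 CPM (0.65, SE 0.20, adjusted p = 0.0366).

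Direct contrasts between treatments were fitted for 6 pairs, 210 member tests in all, adjusted over all genes within each. All but LDC4297 minus YKL5124 ask whether the members' profiles differ from that of AZ5576. ActD minus AZ5576 gave 1 member lower and 2 higher, where 1.84% and 1.37% of all genes were lower and higher. PLK1 averaged 28.1 CPM under ActD and 68.7 CPM under AZ5576, a difference of -1.33 (95% interval -1.70 to -0.96, edgeR adjusted p = 1.29e-09). CDK1 averaged 126 and 74.7 CPM (0.76, interval 0.48 to 1.04, adjusted p = 1.52e-05), and TPX2 74.5 and 52.5 CPM (0.50, interval 0.20 to 0.79, adjusted p = 0.0376). With plate 1 or plate 2 alone 2 members and 1 member were called. The groups of 6 wells do not overlap for PLK1 and CDK1.

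OTS964 minus AZ5576 gave 5 members higher and 0 lower (3.98% and 1.2% of all genes): AURKA (1.73, interval 0.91 to 2.54, adjusted p = 0.00247), AURKB (0.58, interval 0.25 to 0.90, adjusted p = 0.0197), PLK1 (0.59, interval 0.23 to 0.95, adjusted p = 0.0359), BUB1 (1.50, interval 1.01 to 1.99, adjusted p = 2.38e-06) and CENPF (1.49, interval 0.62 to 2.37, adjusted p = 0.0257). For 3 of these the OTS964 wells differed widely: PLK1 was at 71.1 and 140 CPM, BUB1 at 48.1 and 80.6 CPM and CENPF, a large kinetochore protein, at 10.5 and 36.5 CPM on plates 1 and 2. The contrast called 0 members with plate 1 alone and 4 with plate 2 alone, and 9 without the first plate column. DESeq2 and limma-voom each called 5 members as well.

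THZ531 minus AZ5576 gave 1 member higher and 0 lower (1.54% and 0.262% of all genes): CKS2 averaged 160 and 88.7 CPM, a difference of 0.86 (interval 0.49 to 1.23, adjusted p = 0.00195); either plate alone called 0 members. Panobinostat minus AZ5576 gave 6 higher and 1 lower (16.4% and 9.98% of all genes). AURKB averaged 220 and 89.3 CPM (1.29, interval 1.02 to 1.57, adjusted p = 8.47e-15) and CKS2 192 and 88.7 CPM (1.12, interval 0.82 to 1.43, adjusted p = 4.72e-10). BIRC5 was the member lower, at 177 against 251 CPM (-0.53, interval -0.77 to -0.29, adjusted p = 0.000261). Plates 1 and 2 alone called 2 and 3 members. Triptolide minus AZ5576 called 0 members in either direction (0.116% and 0.0097% of all genes lower and higher), with 3 at an unadjusted p under 0.05 and a median half-width of the 95% interval of 0.73, and LDC4297 minus YKL5124, a pair that share CDK7 as target, called 0 (0.0097% and 0%), with 3 at an unadjusted p under 0.05 and a half-width of 0.56. DESeq2 and limma-voom also called 0 members in the last 2 contrasts. A difference that misses the threshold here does not show that the compounds act alike.

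**Figure D5:**
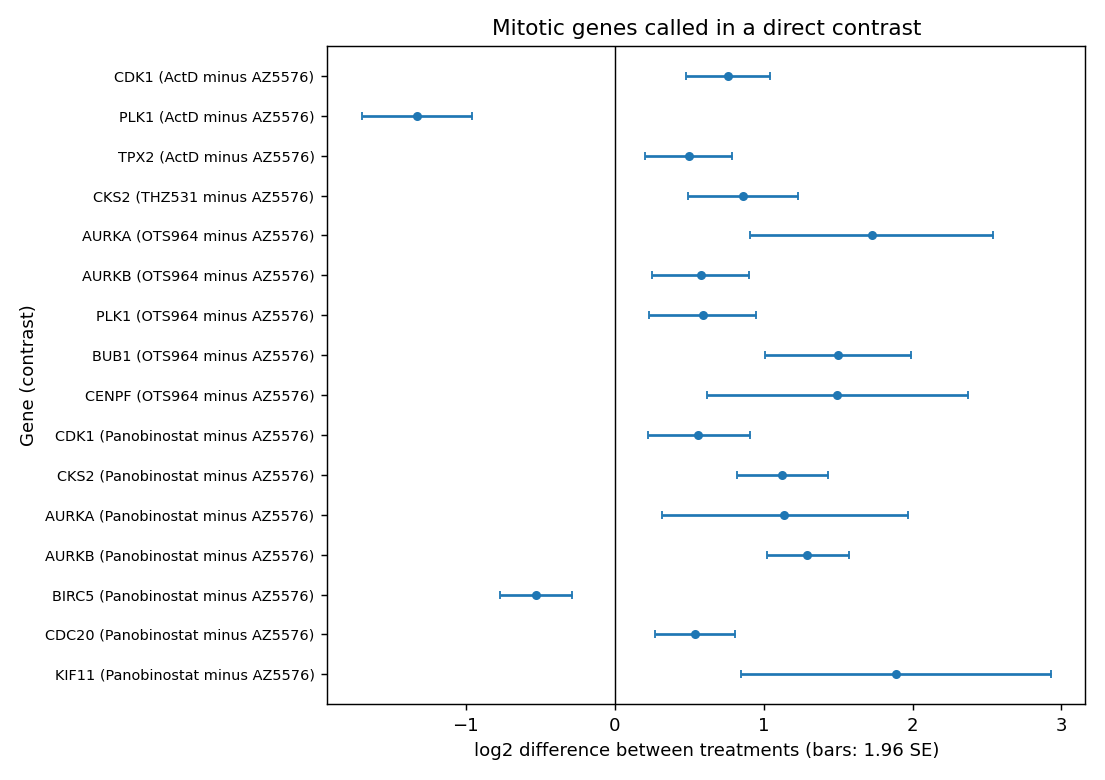
Log2 difference between 2 treatments (horizontal axis, bars are 95% intervals) for the 16 member and contrast pairs with an adjusted p under 0.05. PLK1 is lower under ActD than under AZ5576 (-1.33) and BIRC5 lower under Panobinostat (-0.53); the other 14 pairs are higher than under AZ5576.

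Genes of the same pathway outside the list were taken from 5 lists drawn up from textbook roles. Their counts stand beside 28.1% of all genes lower and 19.2% higher under AZ5576, and 24.7% and 18.6% under ActD; no list was tested, and the share of condensin and cohesin genes that fell was near that of all genes. Of 21 tested regulators of mitotic gene transcription and of CDK1, 12 fell under AZ5576 and 11 under ActD, and 0 rose in both. WEE1, the kinase that restrains CDK1, was at -1.30 (SE 0.34, adjusted p = 9.27e-05) under AZ5576, -2.17 (SE 0.44, adjusted p = 1.89e-08) under ActD and 0.77 (SE 0.22, adjusted p = 0.00558) under OkadaicAcid. Of 20 genes of the anaphase-promoting complex and separase, 7 fell and 4 rose under AZ5576 and 8 fell and 2 rose under ActD. MAD2L1BP, which removes MAD2 from the checkpoint complex, was at -3.43 (SE 0.37, adjusted p = 1.78e-27) under AZ5576 and -3.14 (SE 0.33, adjusted p = 2.65e-27) under ActD, and rose under OTS964 (1.33, SE 0.15, adjusted p = 3.1e-12). Of 19 condensin and cohesin genes 5 fell under AZ5576 and 6 under ActD, and 0 rose. Of 51 other kinetochore, spindle and cytokinesis genes 22 fell and 6 rose under AZ5576, with a median of -0.49, and 21 fell and 7 rose under ActD. TUBB4B, a beta-tubulin, was at -0.84 (SE 0.08, adjusted p = 1.54e-19) and -1.03 (SE 0.08, adjusted p = 1.12e-25) in these treatments, and rose under JQ1 (1.61), Panobinostat (0.96) and Quisinostat (0.96). Of 41 DNA replication and G1/S genes 15 fell and 4 rose under AZ5576, with a median of -0.27, and under OkadaicAcid, where 15.6% and 14.4% of all genes fell and rose, 5 fell and 8 rose, among them PCNA, the replication clamp (0.69, SE 0.10, adjusted p = 1.35e-08). Under A241, 1 of these 41 rose and 0 fell, and under A485 2 rose and 0 fell, where 1.81% and 1.88% of all genes rose.

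In the 60 treatments outside the 14, A241 and A485 included, 27 of 2100 member tests were lower (1.29%) and 15 higher (0.714%), where 0.453% and 0.959% of all gene tests were lower and higher. Calls came in 22 treatments, and 9 of the 27 lower ones were CKS2. The median member was below 0 in 55 of the 60 treatments, with a median of medians of -0.14. EtOH wells gave 0 calls by edgeR, with 3 members lower at an unadjusted p under 0.05, and a median of -0.10. Against the 50 wells of 24 methylation-enzyme compounds in place of DMSO, the other 36 treatments gave 3 lower and 39 higher, and the median of medians was 0.03; 0.769% and 0.653% of all gene tests were then lower and higher. Against DMSO the same 36 gave 12 lower and 15 higher, with a median of medians of -0.12, so the sign of the small shifts changed with the reference wells. Against the methylation-enzyme compounds A241 and A485 had 16 and 14 members higher. The share of all genes called in these 2 treatments with that reference is not given here, so the counts cannot be set against it. Among BET compounds, IBET_762 had 1 member lower and 1 higher, where 2.34% and 2.78% of all genes were lower and higher. By edgeR PLK1 was at -0.45 (SE 0.11, adjusted p = 0.00325) and CKS2 at 0.30 (SE 0.08, adjusted p = 0.0141), the same 2 directions as JQ1. None of the other members called under JQ1 passed the threshold under IBET_762. The BET degrader dBET1 had AURKB at -0.50 (SE 0.11, adjusted p = 0.01). AURKB did not pass the threshold under JQ1 (0.15) or IBET_762 (-0.20). It fell in 5 of the 60 treatments, with a median of -0.22 over the 60. First-column DMSO wells were higher in AURKB (0.41 on the log2 scale), and dBET1 had 0 wells in that column. Phendione had 5 members called: AURKB (-0.42), TOP2A (-0.82) and CENPA (-0.87) were lower and KIF20A (0.92) and PLK1 (0.40) higher. These were 8.57% of members lower and 5.71% higher, where 2.71% and 4.73% of all genes were lower and higher.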

How the data were processed

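The authors deposited 1 table of read counts per plate, with a column per well, and a table that names the compound of each well. The deposited values fall under the unit of expected counts here, because a footer line of each table holds fractions; all gene and ERCC values are whole, and the 6 footer lines were left out. The submitters' processing notes name FastQC 0.11.6, bcl2fastq 2.17.1.14, R 4.0.2 and cutadapt 2.1, and the build GRCh37 (hg19). Which aligner and counter were run is not given in the sources used here, nor is whether copies of 1 molecule were collapsed. Gene symbols were looked up by Ensembl identifier (51996 of 57905 lines matched). Promoters were joined by symbol from RefSeq (GRCh38.p14), another build than that of the counts.

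Testing used edgeR 4.0.16 (R 4.3.3): filterByExpr kept 10312 genes, TMM factors scaled the wells, and 1 quasi-likelihood fit of all 192 wells had a term per treatment and a plate term, with Benjamini-Hochberg adjustment per comparison. A faster solver was checked on 300 genes against edgeR (largest difference in log10 p 1e-06) and tested on simulated data. The plate is the replicate block, since the labels give each plate its own library; no pair of same-numbered wells was identical (0 of 96). Wells held 173553 to 1906446 human counts.

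The members, lists and tests were chosen with earlier results of these data known. Described one by one are treatments with at least 8 members called, and, whatever their count, AZ5576, LDC4297, YKL5124, THZ1, THZ531, OTS964, ActD, DRB, Triptolide, Panobinostat and Quisinostat; the members named are the 4 with the smallest p per direction, and the highest mean DMSO level per role group. The alternatives tried were RLE factors, library size, ERCC scaling, no filter, no plate term, single plates, no first column, methylation-enzyme compounds as reference, only treatment and DMSO wells, limma-voom (limma 3.58.1) and DESeq2 1.42.0. The check of 1 marker list is not reported here.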

Additional observations from a re-analysis of the deposited data

Results flagged for a closer look

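In 25 groups of 6 wells (named members called under AZ5576, ActD, JQ1 and A485), 1 well stood apart from the others. CKS2 under AZ5576 was at 69.5 CPM in well 48 of plate 2, while the other 5 wells held 88.4 to 98.7 CPM; the gap was 0.646 of the whole range, above Dixon's 95% critical value for 6 wells. That well had 547386 human counts, within the 365275 to 768316 of the AZ5576 wells. Chance alone marks about 1 in 20 such groups, and the well is low in the direction of the change.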

How the results depend on the processing

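The number of members called moved by over 1.5 times in 29 of 40 counts with ERCC scaling, 28 and 29 of 40 with 1 plate left out, 16 of 32 with another reference, 14 of 40 with library size alone, 14 of 40 without a filter and 2 of 40 with RLE factors. Of 1040 values of single named members under the alternatives, 813 kept direction and call, 210 lost the call and 17 changed sign. These members were named by their small p in the main fit, and the alternatives reuse its wells. Kept directions are therefore no independent check. Losses were most frequent with 1 plate left out, and 15 of the 17 sign changes came with ERCC scaling. The cause was not tested. For the alternatives below, no share of all genes called is given beside the member counts. These counts therefore do not show whether members moved more than other genes. Scaled by the spike-ins, the middle tested gene itself stood at -0.87 under AZ5576, -1.03 under ActD, -1.05 under DRB and -0.34 under JQ1. It stood at -0.03 under Quisinostat and 0.10 under YKL5124. With ERCC scaling the members lower numbered 25 under A159, 35 under AZ5576, 35 under ActD, 32 under DRB, 15 under JQ1, 28 under OTS964, 5 under Quisinostat, 31 under THZ1, 33 under THZ531, 31 under Triptolide and 2 under YKL5124, and those higher 1 under A241 and 0 under A485; contrasts with AZ5576 then called 1 (ActD), 2 (OTS964), 17 (Panobinostat) and 0 (THZ531). Log2 values that changed sign with ERCC scaling were BIRC5 under A159 (-0.12), AZ5576 (-0.30), ActD (-0.45), DRB (-0.34) and Triptolide (-0.37), SPC25 under AZ5576 (-0.42), MAD2L1 under ActD (-0.43) and THZ1 (-0.21), TPX2 under ActD (-0.63), HMMR (-0.21), PTTG1 (-0.57) and CCNB2 (-0.47) under DRB, CDK1 (-0.04) and CDC20 (-0.07) under JQ1 and PTTG1 under OTS964 (-0.29). With library size alone SPC25 under AZ5576 was at -0.01 and PTTG1 under DRB at -0.02, the members lower were 15 (A159), 9 (JQ1), 13 (OTS964), 13 (THZ1) and 15 (Triptolide), and the contrasts called 5 (ActD) and 11 (Panobinostat). With methylation-enzyme compounds as the reference the members lower were 5 (A159), 9 (DRB), 1 (JQ1), 1 (LDC4297), 2 (OTS964), 4 (Triptolide) and 2 (YKL5124), those higher 16 (A241) and 14 (A485), and the JQ1 median was 0.05. Without a filter, where more genes are tested, the members lower were 1 (LDC4297), 2 (OTS964), 5 (THZ531) and 3 (YKL5124), those higher 1 (A241) and 1 (A485), and the OTS964 contrast called 2. DESeq2 gave 3 lower for OTS964, 6 for THZ531 and 2 for YKL5124, and a median of -0.01 for OkadaicAcid; limma-voom gave 3, 6 and 3 lower for OTS964, THZ531 and YKL5124. With only treatment and DMSO wells OTS964 had 5 lower and YKL5124 2. Without the first plate column JQ1 had 3 lower, A485 3 higher and the OTS964 contrast 9 called. Without the replicate block of plates YKL5124 had 3 lower instead of 5, and 37 of 40 counts stayed within 1.5 times the main count.

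Leaving out plate 1 or plate 2 gave, for members lower, 2 to 4 (A159), 11 to 14 (AZ5576), 11 to 13 (ActD), 5 to 6 (DRB), 0 to 2 (JQ1), 0 to 0 (LDC4297), 2 to 2 (OTS964), 0 to 2 (Panobinostat), 1 to 3 (Quisinostat), 1 to 3 (THZ1), 1 to 3 (THZ531), 0 to 3 (Triptolide) and 1 to 1 (YKL5124). Members higher numbered 5 to 6 (OkadaicAcid), 0 to 0 (A241) and 0 to 1 (A485), and the contrasts with AZ5576 called 1 to 2 (ActD), 0 to 4 (OTS964), 2 to 3 (Panobinostat) and 0 to 0 (THZ531).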

Other observations

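Over all 192 wells the tables held 607 counts of INCENP and 131 of UBE2C. Among treatments with few calls, KIF23, a motor of the central spindle, had its lowest value under MI-2 (-2.36), and BUB1 (-1.75) and KIF4A (-1.91) had theirs under EI1. The 14 tested members under 30 CPM in DMSO had a median log2 change of -1.02 under AZ5576 (11 lower, median SE 0.31), the 11 from 30 to under 100 CPM one of -0.49 (8 lower, median SE 0.15), and the 10 at 100 CPM or more one of -0.11 (4 lower and 2 higher, median SE 0.09). Under A241 the 3 medians were 0.67, 0.33 and 0.17 from the lowest to the highest class. The order did not hold throughout: they were -0.52, -0.59 and -0.08 under ActD, -0.41, -0.56 and 0.07 under A159, -0.44, -0.63 and -0.08 under Panobinostat and -0.37, -0.43 and 0.01 under Quisinostat.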
